A study of Homo sapiens with 12 samples.

Results

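The 10 genes studied here write, maintain or remove DNA methylation, or build the Polycomb methyltransferase, and were followed in a human multiple myeloma cell line treated with NGI-1. They were taken by symbol from the deposited expression table: DNMT1, UHRF1, HELLS, DNMT3A, DNMT3B, TET2, TET3, EZH2, SUZ12 and EED, which are 10 of 59276 features. MM1S, a myeloma line of transformed plasma cells, was grown with 10 μM NGI-1, a small-molecule inhibitor of the oligosaccharyltransferase that attaches N-glycans to proteins in the endoplasmic reticulum, and RNA was sequenced after 2, 3 and 5 days. There were 3 libraries at each time and 3 at day 0, 12 in all. The day 0 libraries carry the NGI-1 tag in the sample labels but are used by the study as untreated cells, and they are called untreated here. No untreated library was taken at a later day, so time in culture and treatment cannot be told apart, and every comparison with day 0 rests on those 3 libraries. The labels do not say that the 3 libraries of a group came from separate cultures, so p-values measure only the spread between these libraries. In bulk RNA a lower value can reflect fewer cells of a kind or less RNA per cell, and the values cannot separate these.

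DNA methylation is copied onto the new strand after replication by DNMT1, which UHRF1 brings to hemimethylated CpG sites, while the chromatin remodeller HELLS opens packed nucleosomes to the enzymes. DNMT3A and DNMT3B set new methylation, and TET2 and TET3 oxidise 5-methylcytosine as the first step of its removal. EZH2, SUZ12 and EED form the core of Polycomb repressive complex 2 (PRC2), which methylates lysine 27 of histone H3, with EZH2 as the enzyme. EZH2 is highly expressed in dividing germinal-centre and myeloma cells, and most of the replication-linked genes of this group are known targets of E2F transcription factors.

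The start sites of the 10 genes are shown because several of these genes moved together with replication genes. RefSeq windows of 300 bases, from 250 bases before to 50 bases after each annotated start (GRCh38.p14), were matched for all 10 genes, 20 windows in all, and searched on both strands for the E2F words TTTCCCGC, TTTGGCGC, TTTCGCGC and TTTGCCGC. DNMT1, UHRF1, HELLS, EZH2 and SUZ12 held at least 1 of these words, 5 of the 10 genes. DNMT3A, DNMT3B, TET2, TET3 and EED held none in the windows searched. Of all 35116 RefSeq windows 3.31% held such a word, as did 3.99% of the 27305 genes. Each of the 4 words contains a CpG, and the windows of the 10 genes that held one had 22 to 46 CpG and 57.7% to 76.0% GC, against medians of 14 CpG and 58.7% GC over all windows, so these windows were richer in CpG than most. The part of base composition in the count was not tested. The 7 sites are printed below as 30 bases on the gene's strand with the word, or its reverse complement, in capitals, and positions count from 1 at the transcription start, with negative numbers before it.
DNMT1, chr19:10194937-10194966, minus strand, word at position -2: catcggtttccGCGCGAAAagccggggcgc
UHRF1 (first), chr19:4909476-4909505, plus strand, word at position -14: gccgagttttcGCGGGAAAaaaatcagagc
UHRF1 (second), chr19:4909973-4910002, plus strand, word at position -160: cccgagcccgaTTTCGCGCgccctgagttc
HELLS (first), chr10:94545701-94545730, plus strand, word at position -76: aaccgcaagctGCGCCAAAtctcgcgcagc
HELLS (second), chr10:94545769-94545798, plus strand, word at position -8: gatgacaggatTTTCCCGCgaaggagaagc
EZH2, chr7:148884272-148884301, minus strand, word at position 2: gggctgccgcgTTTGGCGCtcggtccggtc
SUZ12, chr17:31936807-31936836, plus strand, word at position -189: cgacccctaatTTTCCCGCgaattcagttc
A match describes letters only and does not show binding. The CCAAT word, bound by NF-Y in many cell-cycle promoters, is common, found in 34.6% of windows. The 250 bases before the RefSeq start of HELLS hold both of its E2F words, and those before the RefSeq start of DNMT3B hold none. Each of these starts lies inside the GENCODE span of its gene, which begins at chr10:94501434 for HELLS and chr20:32762385 for DNMT3B. The bases before those first positions were not searched, so the lack of a word in DNMT3B holds for its window only. Both stretches are given next because both genes fell strongly in the treated cells.
HELLS, chr10:94545538-94545787, plus strand: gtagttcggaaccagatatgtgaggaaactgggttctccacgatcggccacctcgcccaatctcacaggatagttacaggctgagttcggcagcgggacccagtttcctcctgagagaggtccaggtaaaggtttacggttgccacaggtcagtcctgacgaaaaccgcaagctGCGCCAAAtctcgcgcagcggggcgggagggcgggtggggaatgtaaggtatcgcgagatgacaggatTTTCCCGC
DNMT3B, chr20:32779602-32779851, plus strand: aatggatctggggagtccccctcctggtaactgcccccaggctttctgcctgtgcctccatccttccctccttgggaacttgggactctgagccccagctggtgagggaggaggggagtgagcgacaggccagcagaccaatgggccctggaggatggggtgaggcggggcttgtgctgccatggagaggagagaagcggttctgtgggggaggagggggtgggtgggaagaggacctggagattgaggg

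Values are TPM, a measure of transcript abundance that is corrected for transcript length and sums to 1000000 in each library, so that levels of different genes may be compared. Tests used limma on log2(TPM + 1) over the 11939 features with at least 1 TPM in at least 3 libraries, a filter that the 10 genes all passed, and a change was called at an adjusted p under 0.05 with a log2 fold change beyond 0.5. The deposited values moved as a whole: ribosomal protein and mitochondrial transcripts made up 38.8% to 39.2% of the TPM in untreated libraries and 61.2% to 64.1% at day 5, and over the tested features the median log2 change from untreated was -0.18 at day 2, -0.73 at day 3 and -0.99 at day 5. Each change is therefore given also after the libraries were rescaled to equal medians, which brought these medians to 0.06, 0.01 and 0.03. On the log2(TPM + 1) scale changes of genes near or below 1 TPM are understated. The libraries had plasma cell identity: 10 of 10 plasma cell markers had a mean of at least 1 TPM in every group, although 6 of the 10 were called lower and 2 higher at day 5 as deposited, and 1 lower and 4 higher after rescaling. XBP1, the plasma cell secretory factor, had a log2 fold change of -2.09 at day 5, and of -0.80, called, after rescaling. SDC1, the surface marker CD138, was at -1.79, and at -0.50, not called, after rescaling. The 2 called higher as deposited were TNFRSF17, at 1.85 (3.15 after rescaling), and JCHAIN, at 0.84 (2.14 after rescaling). The summed level of the 10 markers ran from 12150 to 14301 TPM in untreated libraries and from 19971 to 21264 TPM at day 5, and most of it was JCHAIN, which joins polymeric immunoglobulins, at a mean of 9697 TPM in untreated cells and 17339 TPM at day 5. None of 5 B cell, 5 myeloid and 5 stromal markers reached a mean of 1 TPM in any group, with summed levels of at most 0.745 TPM. Of 5 T cell markers only CD3E did, at 3.00 TPM in untreated cells and 4.01 TPM at day 5.

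Of the 10 genes 8 were called lower at day 2, 9 at day 3 and 9 at day 5, and 0 were called higher at any day. The background was high: 23.2% of all tested features were called lower at day 2, 61.5% at day 3 and 69.8% at day 5, and 8.03%, 7.59% and 7.73% were called higher. After rescaling, 7 of the 10 were called lower at each day, where 9.44%, 22.6% and 24.7% of all tested features were. The 7 genes at day 5 were DNMT1, UHRF1, HELLS, DNMT3B, TET3, EZH2 and SUZ12. The median log2 fold change of the 10 genes was -1.06 at day 2, -2.12 at day 3 and -2.41 at day 5 on the deposited scale, and -0.77, -1.40 and -1.34 after rescaling. The 3 libraries of a treated group were each lower than any untreated library for 9 genes at day 2 and for 10 at days 3 and 5, a pattern that 44.1%, 70.5% and 75.2% of all tested features showed. DNMT3A stood apart from the other 9 genes, since it was not called at any day on either scale.

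The 3 genes of maintenance methylation fell at every day on both scales. DNMT1 (ENSG00000130816.15), the maintenance methyltransferase, lies on the minus strand at chr19:10133345-10231286 (GRCh38, GENCODE 29). Its level was 62.4, 55.2 and 56.5 TPM in the untreated libraries, 20.7, 24.7 and 25.1 TPM at day 2, 6.22, 9.82 and 7.33 TPM at day 3, and 4.40, 5.05 and 7.997 TPM at day 5. DNMT1 was the most abundant of the 10 genes in untreated cells, its groups did not overlap between untreated, day 2 and day 3, and the day 3 and day 5 libraries overlapped. The mean was 58.0 ± 3.81 TPM (SD, n = 3) in untreated cells and 5.81 ± 1.92 TPM (SD, n = 3) at day 5, 10.02% of the untreated level. The log2 fold change was -1.27 (SE 0.18, adjusted p = 9.86e-05) at day 2, -2.77 (SE 0.18, adjusted p = 1.65e-08) at day 3 and -3.15 (SE 0.18, adjusted p = 2.17e-09) at day 5. After rescaling it was -0.97, -1.91 and -1.96 and was called at each day. S1PR2, a sphingosine phosphate receptor gene that overlaps DNMT1 on the same strand, was at 1.78 TPM in untreated cells and 1.16 TPM at day 5.

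UHRF1 (ENSG00000276043.4, chr19:4903080-4962154, plus strand), the reader of hemimethylated CpG sites that recruits DNMT1, fell more than any other of the 10 genes. Its level was 39.1, 33.9 and 37.8 TPM in the untreated libraries, 4.81, 4.82 and 4.35 TPM at day 2, 0.321, 0.479 and 0.303 TPM at day 3, and 0.144, 0.0643 and 0.0930 TPM at day 5. No group overlapped another. The day 2 mean was 12.6% of the untreated mean and the day 5 mean 0.272% of it. The log2 fold change was -2.74 (SE 0.12, adjusted p = 2.14e-09) at day 2, -4.79 (SE 0.12, adjusted p = 1.69e-12) at day 3 and -5.11 (SE 0.12, adjusted p = 3.5e-13) at day 5, and -2.42, -4.19 and -4.52 after rescaling. TPM values hold no read counts, so the precision of values near 0.1 TPM can be read only from the 3 libraries.

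HELLS (ENSG00000119969.14, chr10:94501434-94613905, plus strand), the SNF2-family remodeller that supports methylation of packed chromatin, went the same way. Its level was 43.3, 37.6 and 47.3 TPM in the untreated libraries, 6.56, 7.13 and 7.60 TPM at day 2, 2.00, 3.36 and 2.03 TPM at day 3, and 1.02, 0.893 and 1.34 TPM at day 5. Each day lay below the day before it with no overlap. Its mean at day 5 was 2.54% of the untreated mean. Its fold change on the log2 scale was -2.43 (SE 0.16, adjusted p = 9.62e-08) at day 2, -3.68 (SE 0.16, adjusted p = 2.02e-10) at day 3 and -4.39 (SE 0.16, adjusted p = 2.06e-11) at day 5, and -2.12, -2.89 and -3.44 after rescaling. TBC1D12, which overlaps HELLS on the same strand, was at 2.56 TPM in untreated cells and 1.37 TPM at day 5.

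The 2 de novo methyltransferases parted. DNMT3A (ENSG00000119772.16, chr2:25227855-25342590, minus strand) was the least expressed of the 10 genes in untreated cells, at 1.17, 1.08 and 1.20 TPM. It was at 0.962, 1.52 and 1.36 TPM at day 2, 0.713, 0.887 and 0.461 TPM at day 3, and 0.519, 0.596 and 1.02 TPM at day 5. The day 2 libraries overlapped the untreated ones, and the day 3 and day 5 libraries lay below them. The log2 fold change was 0.08 (SE 0.15, adjusted p = 0.697) at day 2, -0.36 (SE 0.15, adjusted p = 0.0419) at day 3 and -0.34 (SE 0.15, adjusted p = 0.0474) at day 5, none beyond 0.5. After rescaling it was 0.21, 0.06 and 0.27, with a 95% interval of -0.02 to 0.57 at day 5, so its sign at days 3 and 5 depended on the scaling. With a pseudocount of 0.1, at which low values move more, the change at day 3 was -0.70 and was called.

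DNMT3B (ENSG00000088305.18, chr20:32762385-32809356, plus strand) was at 8.56, 8.27 and 8.34 TPM in the untreated libraries, 1.30, 1.63 and 1.48 TPM at day 2, 0.394, 0.566 and 0.263 TPM at day 3, and 0.109, 0.176 and 0.185 TPM at day 5. No group overlapped another, and the day 5 mean was 1.87% of the untreated mean. Its log2 fold change was -1.93 (SE 0.12, adjusted p = 6.58e-08) at day 2, -2.74 (SE 0.12, adjusted p = 2.46e-10) at day 3 and -3.02 (SE 0.12, adjusted p = 5.45e-11) at day 5, and -1.61, -2.18 and -2.45 after rescaling. In untreated cells DNMT3B stood at 8.39 ± 0.154 TPM (SD, n = 3) against 1.15 ± 0.0603 TPM (SD, n = 3) for DNMT3A. At day 5 the order was turned, with 0.157 ± 0.0418 TPM (SD, n = 3) for DNMT3B and 0.710 ± 0.267 TPM (SD, n = 3) for DNMT3A.

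Of the dioxygenases TET3 fell on both scales at days 3 and 5, and TET2 fell on the deposited scale only. TET3 (ENSG00000187605.15, chr2:73986404-74108176, plus strand) was at 4.48, 4.60 and 4.19 TPM in the untreated libraries, 2.43, 2.37 and 2.26 TPM at day 2, 0.678, 1.31 and 0.816 TPM at day 3, and 0.705, 0.727 and 1.27 TPM at day 5. Its treated libraries lay below the untreated ones at every day. The log2 fold change was -0.69 (SE 0.15, adjusted p = 0.00219), -1.50 (SE 0.15, adjusted p = 7.82e-07) and -1.53 (SE 0.15, adjusted p = 3.71e-07) at days 2, 3 and 5. After rescaling it was -0.44, not called, at day 2, and -0.90 and -0.72, called, at days 3 and 5.

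TET2 (ENSG00000168769.13, chr4:105145875-105279816, plus strand), a gene often mutated in blood cancers, was at 2.60, 2.63 and 2.17 TPM in the untreated libraries, 1.85, 2.08 and 1.90 TPM at day 2, 0.907, 1.15 and 1.06 TPM at day 3, and 0.659, 0.780 and 1.21 TPM at day 5. The day 2 libraries lay just below the untreated ones. Its log2 fold change was -0.23 (SE 0.13, adjusted p = 0.172) at day 2, and -0.76 (SE 0.13, adjusted p = 0.00013) and -0.89 (SE 0.13, adjusted p = 2.56e-05) at days 3 and 5, both called. Against the median of all tested features these were differences of -0.03 and 0.10. After rescaling the fold changes were -0.03, -0.20 and -0.14 and none was called, and the 95% interval at day 5 was -0.39 to 0.11. TET2-AS1, on the opposite strand, was at or below 0.0411 TPM in every library. TET1, the third family member, was below the filter, at 0.536 TPM in untreated cells and 0.103 TPM at day 5.

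Within the PRC2 core the enzyme EZH2 had larger falls than SUZ12 and EED. EZH2 (ENSG00000106462.10, chr7:148807383-148884321, minus strand) was at 36.3, 42.7 and 39.5 TPM in the untreated libraries, 16.5, 15.3 and 17.4 TPM at day 2, 4.29, 6.01 and 3.49 TPM at day 3, and 2.31, 2.73 and 4.41 TPM at day 5. Untreated, day 2 and day 3 libraries did not overlap, and replicate 3 of day 5 lay within the day 3 range. The mean at day 5 was 7.98% of the untreated mean. On the log2 scale EZH2 changed by -1.22 (SE 0.19, adjusted p = 0.000153) at day 2, -2.88 (SE 0.19, adjusted p = 1.24e-08) at day 3 and -3.31 (SE 0.19, adjusted p = 1.45e-09) at day 5, and -0.92, -2.05 and -2.20 after rescaling.

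SUZ12 (ENSG00000178691.10, chr17:31937018-32001045, plus strand), the scaffold of PRC2, was at 32.0, 37.9 and 31.0 TPM in the untreated libraries, 18.04, 17.2 and 17.0 TPM at day 2, 11.96, 13.4 and 10.03 TPM at day 3, and 7.18, 8.28 and 11.8 TPM at day 5. The untreated libraries lay above all others. Its log2 fold change was -0.91 (SE 0.16, adjusted p = 0.000408), -1.44 (SE 0.16, adjusted p = 1.61e-06) and -1.80 (SE 0.16, adjusted p = 1.04e-07) at days 2, 3 and 5. After rescaling it was -0.62, -0.57 and -0.59, called at each day, so that the rescaled level was reached by day 2 and differed by 0.04 (95% interval -0.18 to 0.27) between days 3 and 2. SUZ12P1, a transcribed pseudogene copy of SUZ12, was at 5.44 ± 1.15 TPM (SD, n = 3) in untreated cells and 2.50 ± 0.492 TPM (SD, n = 3) at day 5. How the upstream counting split reads that fit both SUZ12 and this copy is not given in the sources used here, so the level of SUZ12 is uncertain to that extent.

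EED (ENSG00000074266.19, chr11:86244544-86278813, plus strand), which binds the methylated histone tail, was at 17.5, 20.3 and 19.6 TPM in the untreated libraries, 10.96, 9.49 and 10.1 TPM at day 2, 7.66, 7.40 and 7.97 TPM at day 3, and 5.40, 5.35 and 5.90 TPM at day 5. No group overlapped another. EED had log2 fold changes of -0.85 (SE 0.10, adjusted p = 2.58e-05), -1.21 (SE 0.10, adjusted p = 2.05e-07) and -1.62 (SE 0.10, adjusted p = 6.11e-09) at days 2, 3 and 5. After rescaling it was -0.56, called, at day 2, and -0.37 and -0.45, under the fold threshold, at days 3 and 5, with adjusted p = 0.00842 and 0.00217. EZH2P1 and DNMT3AP1, pseudogene copies of EZH2 and DNMT3A, were listed at 0 in every library.

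**Figure D1:**
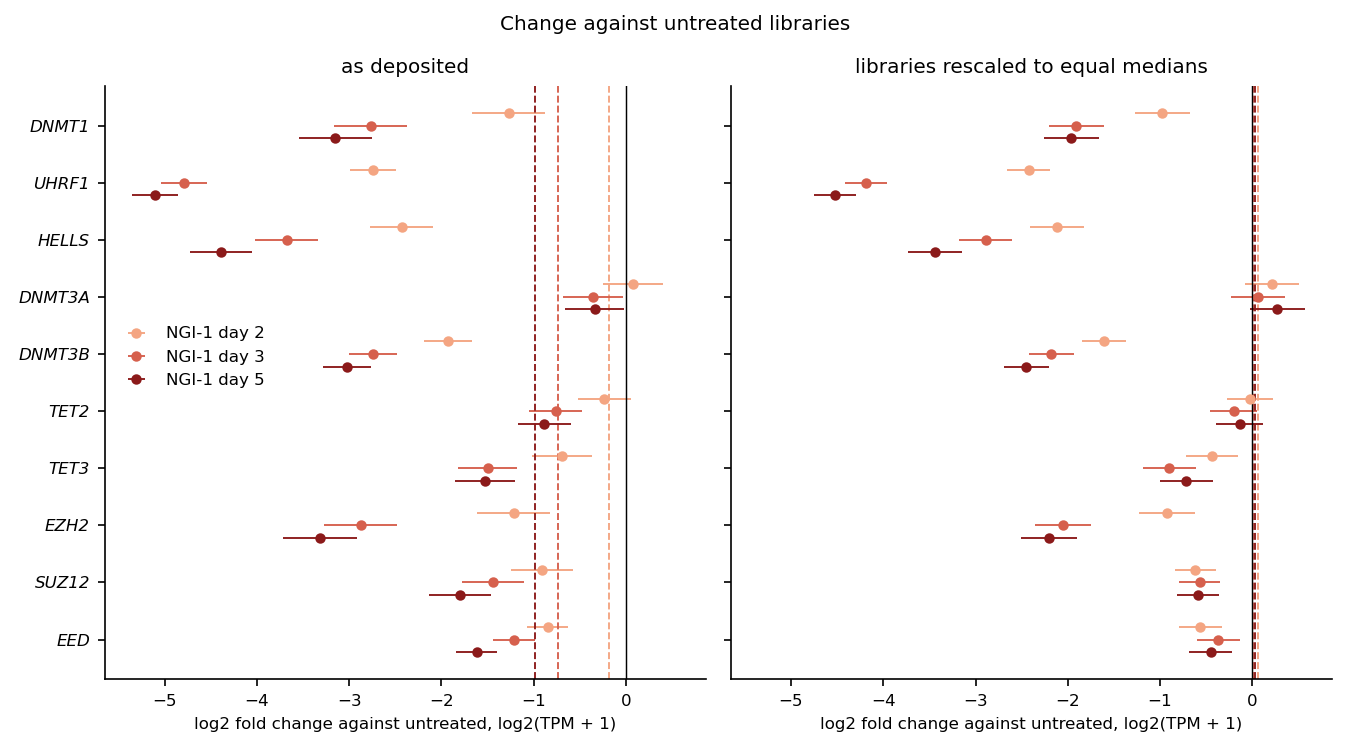
Log2 fold change on the log2(TPM + 1) scale (horizontal axes) of each gene at days 2, 3 and 5 against untreated cells, as deposited (left) and after rescaling the libraries to equal medians (right). Points are limma estimates with 95% intervals (3 libraries per group) and dashed lines are the medians of all 11939 tested features for each day; UHRF1, HELLS and DNMT3B lie left of the dashed lines on both sides, and TET2 lies near them.

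The order of levels changed with treatment. In untreated cells it ran DNMT1, HELLS, EZH2, UHRF1, SUZ12, EED, DNMT3B, TET3, TET2 and DNMT3A from high to low, and the libraries of HELLS, EZH2, UHRF1 and SUZ12 overlapped between neighbours in that order while the others did not. By day 2 SUZ12 was the second most abundant of the 10, at 17.4 ± 0.556 TPM (SD, n = 3), overlapping EZH2 at 16.4 ± 1.05 TPM (SD, n = 3). At day 5 SUZ12 led with 9.09 ± 2.42 TPM (SD, n = 3), its libraries overlapping those of DNMT1, and DNMT1 overlapped EED at 5.55 ± 0.309 TPM (SD, n = 3). UHRF1 was last at day 5, with its libraries overlapping those of DNMT3B.

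Ratios between 2 genes in the same library hardly depend on the scaling, and 8 were compared between the 9 treated and 3 untreated libraries as log2 ratios with 0.1 TPM added. The 8 ratios all differed without overlap at each day, and the exact two-sided permutation test gave p = 0.00909 for each, which is the smallest it can give over 220 choices, and 0.00909 after Benjamini-Hochberg adjustment over the 8 ratios. The share of other gene pairs that separate in this way was not counted. The 8 of 8 therefore cannot be read as particular to these pairs. EZH2 to EZH1, its paralogue in non-dividing cells, fell from a log2 ratio of 2.44 ± 0.229 (SD, n = 3) in untreated cells to 1.06 ± 0.217 at day 2, 0.28 ± 0.288 at day 3 and -0.36 ± 0.0664 at day 5. As TPM this was 39.5 TPM of EZH2 to 7.20 TPM of EZH1 in untreated cells and 3.15 TPM to 4.03 TPM at day 5. EZH1 itself had a log2 fold change of -0.73 at day 5 on the deposited scale, called lower (adjusted p = 0.00202), and of 0.36, not called, after rescaling.

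EZH2 also fell against its core partners SUZ12 and EED. Its log2 ratio to SUZ12 was 0.23 ± 0.0990 (SD, n = 3) in untreated cells, -0.09 ± 0.105 at day 2, -1.37 ± 0.193 at day 3 and -1.52 ± 0.104 at day 5. Its log2 ratio to EED went from 1.04 ± 0.0303 to -0.85 ± 0.396 over the same span. The largest part of both shifts lay between day 2 and day 3.

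The DNMT3A to DNMT3B ratio had the largest shift of the 8, by 3.45 log2 units between the means of treated and untreated libraries. It was -2.77 ± 0.0620 (SD, n = 3) in untreated cells, -0.20 ± 0.169 at day 2, 0.64 ± 0.0770 at day 3 and 1.62 ± 0.322 at day 5. DNMT3B at day 5, at 0.157 TPM, was close to the 0.1 TPM added, so the day 5 ratio is understated. DNMT1 to DNMT3A went from 5.54 ± 0.0891 to 2.87 ± 0.0159. UHRF1 to DNMT1 went from -0.65 ± 0.0642 to -4.85 ± 0.602, although the UHRF1 level at day 5 was as small as the 0.1 TPM added. HELLS to DNMT1 was -0.44 ± 0.164 in untreated cells, -1.71 ± 0.0672 at day 2 and -1.64 ± 0.149 at day 3, and reached -2.29 ± 0.256 at day 5. TET3 to TET2 went from 0.82 ± 0.0832 to 0.02 ± 0.0937.

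From day to day, more of the 10 genes were called lower between days 2 and 3 than between days 3 and 5. Between day 2 and day 3, 8 of the 10 genes were called lower, where 55.5% of all tested features were, and after rescaling 5 were, where 14.8% were. The 5 were UHRF1, with a rescaled log2 fold change of -1.76 (adjusted p = 1.75e-07), EZH2 with -1.13, DNMT1 with -0.93, HELLS with -0.77 and DNMT3B with -0.57. SUZ12, TET2 and TET3 were called on the deposited scale only, at -0.53, -0.53 and -0.81. The call of SUZ12 was lost without replicate 3 of day 3, at -0.43, and that of TET2 without replicate 2 of day 2, at -0.50, or without replicate 1 of day 3, at -0.48. DNMT3A at -0.43 was not called, and passed without replicate 1 of day 2, at -0.54, or without replicate 2 of day 3, at -0.52.

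Between day 3 and day 5, 1 of the 10 genes was called lower, where 13.1% of all tested features were, and the same gene after rescaling, where 1.92% were. That gene was HELLS, at -0.71 (SE 0.16, adjusted p = 0.00612) and -0.55 after rescaling (adjusted p = 0.0206). UHRF1 and DNMT3B did not overlap between these days but were not called, at -0.31 and -0.28. With a pseudocount of 0.1, at which low values move more, both were called, UHRF1 at -1.22 and DNMT3B at -0.95, and UHRF1 was also called, at -0.52, without ribosomal protein and mitochondrial genes. The count rested on single libraries: without replicate 3 of day 5 it was 4, with DNMT1 at -0.60, EZH2 at -0.65 and SUZ12 at -0.55 added, and without replicate 3 of day 3 it was 2, with EZH2 at -0.59. Replicate 3 of day 5 had the highest level of the day 5 libraries for each of the 10 genes but UHRF1, and the lowest share of ribosomal protein and mitochondrial transcripts at that day, 61.2%. Its part in the day 5 values was not tested.

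Other genes of these pathways were read from 6 lists of 79 genes, of which 73 passed the filter. By the test 22 fell and 2 rose at day 2, 55 fell and 2 rose at day 3, and 61 fell and 3 rose at day 5, where 23.2%, 61.5% and 69.8% of all tested features fell and 8.03%, 7.59% and 7.73% rose. Once rescaled, 10 fell and 9 rose at day 2, 20 fell and 10 rose at day 3, and 21 fell and 13 rose at day 5, where 9.44%, 22.6% and 24.7% of all tested features fell and 15.4%, 25.4% and 29.4% rose. The rescaled count of lower genes at day 5 was near the share over all features and that of higher genes below it. The counts of single lists at day 5 below are to be read against the same shares, 69.8% lower and 7.73% higher as deposited, and 24.7% and 29.4% once rescaled. The median log2 fold change of the 73 genes at day 5 was -1.11, against -0.99 for all tested features, whereas that of the 10 genes was -2.41. Which genes lay at the ends of each list is given next by the lowest and highest value at day 5.

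Among 13 other DNA methylation genes 11 were tested and 11 called lower at day 5, against 2 after rescaling. CDCA7, the activator of HELLS, was listed at 0 in every library. CDCA7L, its paralogue, fell furthest, from 30.3 ± 0.846 TPM to 2.39 ± 0.801 TPM (SD, n = 3), a log2 fold change of -3.24 (adjusted p = 4.62e-10) and of -2.16 after rescaling. TRDMT1, a tRNA methyltransferase of the same protein family as the DNMTs, had the smallest change, -0.59, and was at 0.45, not called, after rescaling. Of 9 tested demethylation genes 6 fell and 1 rose by day 5 as deposited, while 4 fell and 3 rose once rescaled. IDH2, which makes the TET cofactor α-ketoglutarate in mitochondria, was at -2.09 (-0.81 after rescaling, called), and GADD45B, a stress-induced gene linked to active demethylation, was the gene called higher, at 0.54 (adjusted p = 0.000158) and 1.80 after rescaling. The call of GADD45B on the deposited scale was lost without replicate 2 of the untreated libraries, at 0.50, without replicate 2 of day 5, at 0.50, or without replicate 3 of day 5, at 0.48.

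Among 11 other tested PRC2 genes 9 fell and 0 rose by day 5 as deposited, while 6 fell and 2 rose once rescaled. PHF19, an accessory subunit that guides PRC2 to its targets and is highly expressed in aggressive myeloma, fell from 120.4 ± 5.35 TPM to 6.36 ± 0.856 TPM (SD, n = 3), at -4.05 (adjusted p = 4.97e-12) and -2.85 after rescaling, beside -3.31 and -2.20 for EZH2, a difference that was not tested. LCORL was the highest, at 0.31 (adjusted p = 0.289), and was called higher, at 1.49, after rescaling. Without replicate 3 of the untreated libraries LCORL was called on the deposited scale as well, at 0.61. Of 22 tested PRC1 genes 17 fell and 1 rose as deposited, while 3 fell and 6 rose once rescaled, near the shares over all features except for the few that fell once rescaled. CBX2, a chromodomain subunit of PRC1, was the lowest, at -1.98 (-1.19 after rescaling), and CBX7, an alternative chromodomain subunit, was the gene called higher, from 1.88 ± 0.280 TPM to 3.36 ± 0.920 TPM (SD, n = 3), at 0.58 (adjusted p = 0.00355) and 1.52 after rescaling. The deposited-scale call of CBX7 was lost without replicate 2 of the untreated libraries, at 0.50, or without replicate 2 of day 5, at 0.46.

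Of 8 tested erasers of Polycomb marks and their partners 7 fell and 1 rose by day 5 as deposited, while 2 fell and 1 rose once rescaled. FOXK2, a partner of the H2A deubiquitinase BAP1, was the lowest, at -2.11 (-0.92 after rescaling), and USP16, another H2A deubiquitinase, was called higher, at 0.52 (adjusted p = 0.000407) and 1.80 after rescaling, losing the first call without replicate 1 of the untreated libraries, at 0.46, or without replicate 1 of day 5, at 0.49. Of 12 methyl donor genes 11 fell as deposited, while 4 fell and 1 rose once rescaled. The cytosolic folate enzyme MTHFD1 was the lowest, at -3.51 (-2.34 after rescaling), while its mitochondrial relative MTHFD2 was the highest, at -0.37, not called, and 0.92, called higher, after rescaling.

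The replication genes moved with the lowest of the 10. All 15 replication and proliferation genes listed were called lower at each day on both scales, with median log2 fold changes of -1.69, -3.64 and -4.11 as deposited and -1.39, -2.81 and -2.94 after rescaling. TOP2A, topoisomerase II, was the lowest at day 5 at -5.56, and LIG1, the ligase of the replication fork, the highest at -3.03. The rescaled day 5 changes of UHRF1 (-4.52), HELLS (-3.44), DNMT3B (-2.45) and EZH2 (-2.20) lay within the range of this list, -4.76 to -1.98. DNMT1 at -1.96 lay just above the upper edge, by less than its SE of 0.14. TET3, SUZ12 and EED lay above the range. TET3, at 3.12 TPM in untreated cells after rescaling, could barely have reached it on the log2(TPM + 1) scale. TET2 and DNMT3A, at 1.74 and 0.81 TPM, could not have reached it even with no transcript left. Their place above the range is therefore not informative. The part of cell division in the values of the 10 genes was not tested.

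**Figure D2:**
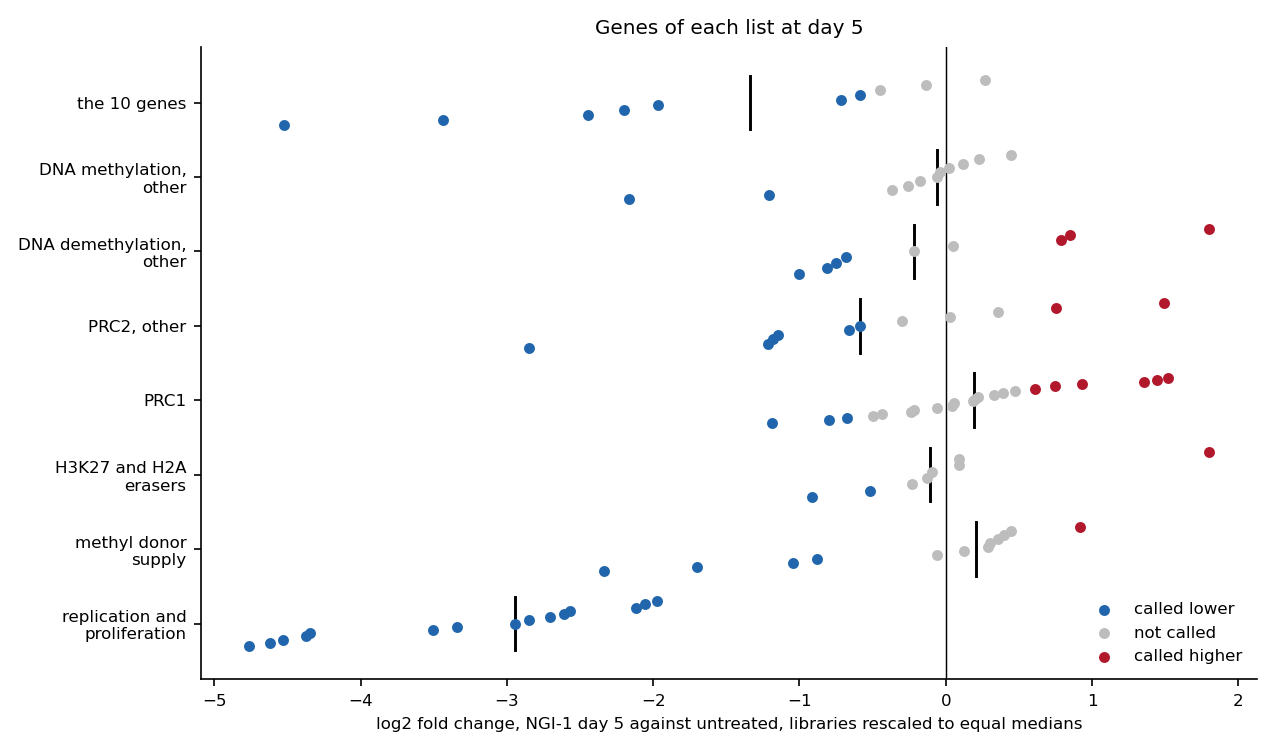
Log2 fold change at day 5 against untreated cells after rescaling the libraries to equal medians (horizontal axis) for the tested genes of each list (rows). Points are genes coloured by call (blue lower, red higher, grey not called) and black bars are list medians; the 10 genes have a median of -1.34, the other pathway lists spread on both sides of 0, and the 15 replication genes are all called lower.

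Genes that DNA methylation or Polycomb are known to hold silent were read from 2 lists. Of 22 germline genes 10 were tested, which were also the genes at 1 TPM or more in all untreated libraries. As deposited, the summed level of the 22 was 1132 to 1271 TPM in untreated cells and 1205 to 1251 TPM at day 5. Rescaling divided the untreated libraries by 1.41 to 1.42 and the day 5 libraries by 0.514 to 0.673. These ranges therefore overlap on the deposited scale only. Of the 10 tested 7 fell and 1 rose by day 5 as deposited, while 2 fell and 3 rose once rescaled. These are changes of genes already expressed in untreated cells and do not describe the silent ones. PAGE5, a cancer-testis gene, was the gene called higher, from 570.4 ± 27.6 TPM to 960.9 ± 48.6 TPM (SD, n = 3), at 0.75 (adjusted p = 9.2e-07) and 2.04 after rescaling, and it was the largest part of the summed level in both groups. SSX1, also a cancer-testis gene, fell to -3.67 (-2.47 after rescaling). Of the 22 germline genes 5 were listed at 0 in all untreated libraries and 3 in all day 5 libraries. Such counts do not show changes at low levels, which went both ways. STK31 had a mean of 0.023 TPM in untreated cells and 0.325 TPM at day 5, and DDX43 of 0.662 and 0.086 TPM. Both were below the filter and were not tested. Of 29 developmental Polycomb targets 7 were tested, of which 6 fell and 0 rose by day 5 as deposited and 1 fell and 0 rose once rescaled. As deposited, the summed level of the 29 was 53.3 to 57.0 TPM in untreated cells and 17.4 to 26.4 TPM at day 5. Rescaling lowers the untreated sum and raises that of day 5, so the size of this fall depends on the scaling. The largest parts of the untreated sum were CDKN2A, at 25.6 TPM, and LHX2, at 19.7 TPM. CDKN2A had a log2 fold change of -1.07 at day 5, called lower, and of 0.15, not called, after rescaling. LHX2, a homeobox gene, was the lowest, at -1.91 (-0.77 after rescaling), and HOXC9 the highest, at -0.26 (adjusted p = 0.318). Of these 29 genes 13 were listed at 0 in all untreated libraries and 12 in all day 5 libraries.

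Across the 12 libraries the expression pattern most like each gene was sought among 5433 tested features with a mean of at least 10 TPM, by Pearson's r on log2(TPM + 1), as a description, since the libraries share groups and a common shift. The nearest to UHRF1 were TUBA4A, MCM10 and CHAF1A (r = 0.998 to 0.999), MCM10 being a replication initiation factor and CHAF1A a subunit of the chromatin assembly factor that works behind the fork. Nearest to HELLS were PCNA, the replication clamp, CACYBP and the proteasome subunit PSMA7 (r = 0.996 for each). PCNA was also among the 3 nearest to DNMT3B (r = 0.994), after MCM10 and DNAJC9. Nearest to EZH2 were SSX1, EPDR1 and the proteasome subunit PSMB2 (r = 0.998), and to DNMT1 GOT2, DIAPH1 and FP565260.1 (r = 0.997 to 0.998). SUZ12 was nearest to ELOVL5, BCAS2 and EIF1AX (r = 0.995 to 0.996), and EED to IDH3B, NUP107 and MRTO4 (r = 0.993). TET2 was nearest to PITRM1, SNRNP200 and POFUT1 (r = 0.992 to 0.995), and TET3 to CTCF, SAFB2 and INTS3 (r = 0.994 to 0.995). DNMT3A had no neighbour as close: FECH, RTL8A and NCSTN were at r = 0.940 to 0.955, and its r to the other 9 genes ran from 0.583 to 0.820.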

How the data were processed

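RNA of MM1S cells was sequenced in 12 libraries, 3 each at days 0, 2, 3 and 5; the labels state over 60 M read pairs per library from 200 ng of RNA. The authors deposited 1 table of log2(TPM + 1) values for 59276 features. Per the labels, FastQC, Trimmomatic, STAR, Salmon and hg38 were used; versions and the annotation release are not given in the sources used here. TPM hold no read counts, so depth and precision per gene are unknown beyond the spread of 3 libraries.

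Values were turned back to TPM. limma 3.58.1 (R 4.3.3) was fitted with a mean-variance trend to log2(TPM + 1) over all 4 groups, for 11939 features with at least 1 TPM in at least 3 libraries, and p-values were adjusted by Benjamini-Hochberg over all of them. The rescaled values divide each library by 1 factor, chosen so that the 5433 features averaging 10 TPM or more have a median log2 deviation of 0 from their means. The fit was checked on simulated data. Ratios were tested by exact permutation in SciPy 1.17.1. Named beside the 10 genes were the lowest and highest tested gene of each list at day 5, EZH1, near-copies and the 3 nearest patterns. CD3E, CDCA7, TET1, CDKN2A, RNF2, STK31, DDX43 and single plasma cell markers were named after their values were seen. The 10 genes and the lists were chosen with earlier results of these data known. Coordinates are those of GENCODE 29 on GRCh38, and promoter windows those of RefSeq on GRCh38.p14. Alternatives covered filters, pseudocount, scaling, abundant features, the samples and variance model of the fit, the fold threshold and leaving out each library. Proteins were not analysed here.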

Additional observations from a re-analysis of the deposited data

Results flagged for a closer look

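The effect against untreated cells differed between day 2 and day 3, by limma's direct test of day 3 against day 2 on the deposited scale, for 8 of the 10 genes. The difference in log2 fold change was -1.50 for DNMT1, -2.05 for UHRF1, -1.25 for HELLS, -0.82 for DNMT3B, -1.66 for EZH2, -0.53 for SUZ12, -0.53 for TET2 and -0.81 for TET3. After rescaling it was called for DNMT1, UHRF1, HELLS, DNMT3B and EZH2, and the rescaled difference was 0.04 for SUZ12, -0.18 for TET2 and -0.46 for TET3. Between day 3 and day 5 the effect differed for HELLS, by -0.71 (-0.55 after rescaling). No group had 4 or more libraries, so single libraries could not be screened as outliers.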

How the results depend on the processing

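TPM hold no counts, and values under 1 TPM rest on 3 libraries. No paired analysis was possible because the labels give the groups no shared replicate numbers. Of 220 alternative counts over the 10 genes, 212 stayed within 1.5 times the reported count, and no alternative called a gene of the 10 higher. The cause of the following shifts was not tested.

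With a log2 fold threshold of 1, 5 of the 10 genes were called lower at day 2, 4 between days 2 and 3 and 0 between days 3 and 5. Between days 3 and 5 the count was 3 with a pseudocount of 0.1, 2 without ribosomal protein and mitochondrial genes, and 1 to 4 when single libraries were left out. Between days 2 and 3 it was 5 once rescaled.

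For the 73 pathway genes, rescaling gave 10, 20 and 21 lower and 9, 10 and 13 higher at days 2, 3 and 5. The fold threshold of 1 gave 6 and 33 lower at days 2 and 3 and 0 higher at each day. Without ribosomal protein and mitochondrial genes 38 were lower at day 5, and 5, 6 and 6 were higher at days 2, 3 and 5. At day 2, 1 was higher with a minimum of 5 TPM, without a filter or in the pairwise fit. At day 3, 1 was higher with the minimum of 5 TPM and 5 without the 20 most abundant features. When single libraries were left out, 1 to 2, 1 to 3 and 1 to 4 were higher at days 2, 3 and 5.

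The changes followed here were those of the 10 genes, of the lowest and highest gene of each list and of EZH1. Among these, directions that turned were of changes that had not been called, except for SUZ12, TRDMT1 and EZH1. Other listed genes called lower at day 5 also turned once rescaled. Examples are CDKN2A, from -1.07 to 0.15, and RNF2, a PRC1 gene, from -0.61 to 0.61, where it was called higher. Once rescaled, the log2 fold change of DNMT3A was 0.063 at day 3 and 0.27 at day 5, that of SUZ12 0.044 and of EED 0.19 between days 2 and 3, and that of TET2 0.064 and of TET3 0.18 between days 3 and 5. For TET3 the last was 0.13 without ribosomal protein and mitochondrial genes, 0.0073 without the 20 most abundant features, and -0.16 to 0.11 when single libraries were left out; for DNMT3A it was then -0.11 to 0.10. At day 5, rescaling turned TRDMT1 to 0.45, MTHFD2 to 0.92, HOXC9 to 0.34 and EZH1 to 0.36, and leaving out ribosomal protein and mitochondrial genes turned MTHFD2 to 0.35 and HOXC9 to 0.091.

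With day 5 libraries alone, 3 against 3, the exact permutation test cannot go below 0.1, and the ratio shifts were -2.80 for EZH2 to EZH1, -1.75 for EZH2 to SUZ12, -1.89 for EZH2 to EED, -2.67 for DNMT1 to DNMT3A, 4.39 for DNMT3A to DNMT3B, -4.20 for UHRF1 to DNMT1, -1.84 for HELLS to DNMT1 and -0.81 for TET3 to TET2.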
